A study of Mus musculus with 17 samples.

Results

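The 10 genes described here encode immune checkpoint and costimulatory molecules: Cd274, Pdcd1lg2, Pdcd1, Ctla4, Lag3, Havcr2, Ido1, Cd80, Cd86 and Cd40. They were chosen by name, and their lines were found among 38340 named genes of a table of spleen RNA. All 10 were among the 14010 genes abundant enough to test, which reached 1 CPM in 2 or more libraries. The spleens came from mice labelled CB57BL/6NCrl, and 17 libraries fell into 6 groups. Of these, 4 groups had received an RNA, namely poly(I:C), pppNS, SLR10 or SLR14 with 3 libraries for each, 1 had received the jetPEI vehicle (2 libraries) and 1 was untreated and is called naive (3 libraries). SLR10 and SLR14 are short stem-loop RNAs made to activate RIG-I, a sensor of viral RNA in the cytosol, poly(I:C) is a synthetic analogue of viral RNA, and the labels do not expand pppNS. The protocol text, which is the same with every library and names the SLRs, gives 25 µg of RNA complexed to in vivo-jetPEI at an N/P ratio of 8 and injected intravenously in 200 µl. It gives neither the time from injection to collection nor the age of the mice, and it does not say whether the doses of poly(I:C) and pppNS were the same. The labels do not say that replicates were separate mice, so p-values measure the spread between these libraries, which may be technical.

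T cells respond to antigen only when further signals from the antigen-presenting cell allow it. CD80 and CD86 on dendritic cells, macrophages and B cells give the activating signal through CD28 and the inhibitory one through CTLA-4, CD40 carries help from T cells to those same cells, and PD-L1 (Cd274) and PD-L2 (Pdcd1lg2) restrain T cells through the receptor PD-1 (Pdcd1). LAG-3 and TIM-3 (Havcr2) are further inhibitory receptors, TIM-3 being also carried by dendritic cells and macrophages, and the enzyme IDO1 degrades tryptophan. Interferons and NF-κB are known inducers of several of these genes.

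CPM here is the deposited value, a read count scaled by an edgeR library size, and values of single libraries are given in the order of replicates 1, 2 and 3. Libraries held 26.5 to 42.8 M reads, of which 15.8 to 29.6 M lay in named genes. Spleen stroma markers (Tlx1, Tcf21 and Nkx2-5) summed to 51.3 and 63.0 CPM with vehicle and to 38.5 to 43.2 CPM in naive libraries, against 3.77 to 7.87 CPM in the SLR10, SLR14 and poly(I:C) libraries. pppNS replicate 3 stood apart, with 46.1% of its reads in lines without a gene name (28.1% to 40.4% in the others) and 72628 CPM summed over 9 erythroid markers. That sum was 8763 and 7453 CPM in the other pppNS libraries, 30991 CPM in SLR14 replicate 2, 37530.2 and 19790 CPM in poly(I:C) replicates 2 and 3, and 2915 to 12564 CPM elsewhere. Results that rest on these 4 libraries are given without them where that changes a call.

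Of the 10 genes, 9 differed between SLR10 and vehicle, 8 of them higher (Cd274, Cd40, Ido1, Cd86, Cd80, Pdcd1, Lag3 and Pdcd1lg2) and 1 lower (Havcr2). The test was limma on log2(CPM + 0.5) with an adjusted p under 0.05, which 39.4% of all tested genes passed, 20.2% as higher and 19.2% as lower. With SLR14 the count was 9 (8 higher, 1 lower), where 38.7% of all tested genes passed (19.3% higher, 19.4% lower). With poly(I:C) it was 8 (7 higher, 1 lower), where 35.9% passed (18.6% higher, 17.3% lower), Pdcd1lg2 and Ctla4 being the ones that did not pass. With pppNS it was 2, Cd40 higher and Havcr2 lower, where 4.3% passed (2.96% higher, 1.35% lower). The median log2 difference of the 10 genes from vehicle was 1.74 for SLR10 and 1.60 for SLR14, and 1.80 for poly(I:C) and 0.25 for pppNS, and that of all tested genes was -0.01, 0.04, 0.07 and 0.01. These 4 comparisons share the same 2 vehicle libraries. SLR10 and vehicle libraries did not overlap for 10 of the 10 genes, nor for 80.7% of all tested genes. For SLR14 this was 9 (68% of all tested genes), for poly(I:C) 9 (63.8%) and for pppNS 5 (42.8%). Separated libraries, given below for single genes, were thus common among all tested genes.

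**Figure D1:**
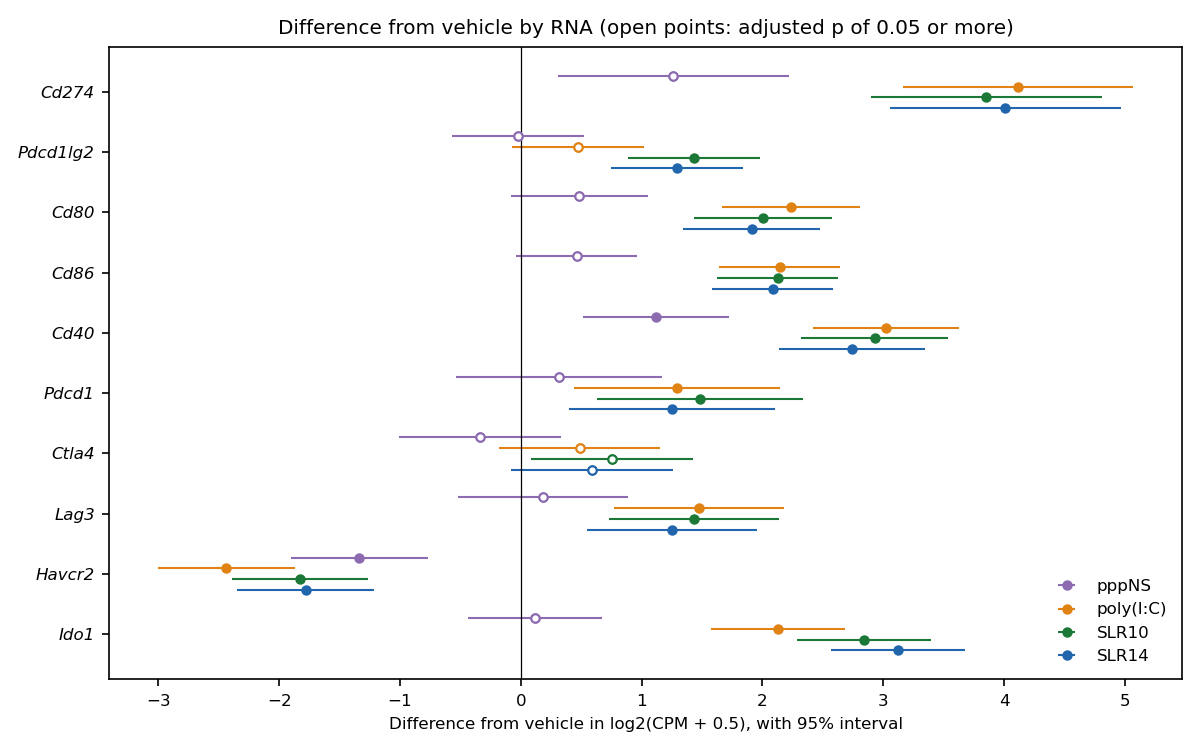
Difference from vehicle for each gene (log2(CPM + 0.5) on the horizontal axis, limma estimate with its 95% interval) by RNA, open points having an adjusted p of 0.05 or more. The SLR10, SLR14 and poly(I:C) estimates lie together for most genes, from 4.12 for Cd274 down to -2.44 for Havcr2, and those of pppNS lie nearer to 0.

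No gene of the 10 differed between vehicle and naive libraries by limma (0 at an unadjusted p under 0.05, 0 by edgeR and 0 by DESeq2), where 0.05% of all tested genes passed. The widest interval was that of Cd274, whose log2 difference was 0.60 (95% interval -0.35 to 1.56). The libraries of the 2 groups did not overlap for 5 of the 10 genes (Cd274, Pdcd1lg2, Havcr2, Ido1 and Cd40), nor for 52.5% of all tested genes.

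RefSeq gave the sequence before the start for 6 of the 10 genes (GRCm38.p6: Cd274, Pdcd1lg2, Pdcd1, Ctla4, Havcr2 and Cd80). The 250 bases before the start are shown for Pdcd1lg2, Pdcd1 and Cd80, which rose with SLR10, and Havcr2, which fell, to set genes that moved in opposite directions beside each other. They lie at chr19:29410669-29410918 (plus strand), chr1:94052554-94052803 (minus strand), chr16:38458683-38458932 (plus strand) and chr11:46454681-46454930 (plus strand). For Cd80 and Ctla4 (chr1:60908775-60909024) the window lies inside the gene as GENCODE annotates it, from bases 38455561 and 60887000. Neither window overlaps a GENCODE exon, and for both genes the RefSeq start used is not the GENCODE start. Capitals mark the match to AANNGAAA, an interferon regulatory factor half-site, which lies on the opposite strand in Pdcd1lg2 and Pdcd1 and is in neither Cd80 nor Havcr2.
Pdcd1lg2: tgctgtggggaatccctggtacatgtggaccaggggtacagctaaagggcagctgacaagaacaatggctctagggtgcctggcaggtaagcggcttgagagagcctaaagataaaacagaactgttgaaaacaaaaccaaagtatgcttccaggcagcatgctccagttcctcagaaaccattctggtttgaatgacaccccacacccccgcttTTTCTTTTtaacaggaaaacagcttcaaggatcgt
Pdcd1: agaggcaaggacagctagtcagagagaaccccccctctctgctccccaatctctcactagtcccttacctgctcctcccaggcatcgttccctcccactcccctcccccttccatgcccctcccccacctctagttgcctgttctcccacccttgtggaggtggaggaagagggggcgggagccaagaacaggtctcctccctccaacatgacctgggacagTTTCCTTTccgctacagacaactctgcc
Cd80: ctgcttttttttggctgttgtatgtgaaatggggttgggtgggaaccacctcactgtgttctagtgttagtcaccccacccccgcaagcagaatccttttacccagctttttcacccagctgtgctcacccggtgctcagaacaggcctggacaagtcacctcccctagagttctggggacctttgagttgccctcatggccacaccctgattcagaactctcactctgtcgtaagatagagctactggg
Havcr2: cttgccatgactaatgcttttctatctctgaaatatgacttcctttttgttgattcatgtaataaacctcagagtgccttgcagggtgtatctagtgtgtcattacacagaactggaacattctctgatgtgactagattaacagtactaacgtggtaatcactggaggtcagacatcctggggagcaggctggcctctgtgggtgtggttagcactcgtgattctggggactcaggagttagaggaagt
Searched on both strands, AANNGAAA was in 3 of the 6 windows (Cd274, Pdcd1lg2 and Pdcd1), at bases -35 to -28 of Pdcd1lg2 and -28 to -21 of Pdcd1, and in 21.3% of 32851 promoter windows of the same length. The window of Cd274 overlaps exons of Plgrkt, so that 47 of its bases lie between the last of these and the start, and its match, at bases -175 to -168, lies outside those 47. This motif was added after the other 3 had been searched, and every match to the core of the interferon-stimulated response element contains it. That core (GAAA, any 2 bases, GAAA, in 2.98% of windows), the GAS element TTCNNNGAA (7.02%) and the NF-κB motif (GGG, any 2 bases, TTTCC, 1.41%) were in none of the 6. A match is a description of letters and not of binding.

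PD-L1 had the largest rise of the 10 genes with SLR10, SLR14 and poly(I:C) as fitted with 0.5 CPM added. That order depended on the value added for Ido1, which is scarce in controls: with 0.1 CPM added the log2 difference between SLR10 and vehicle was 4.32 for Ido1 and 3.87 for Cd274, and with edgeR it was 5.34 and 3.89. Cd274 (GRCm38 chr19:29367455-29388095, plus strand) was at 569, 618 and 603 CPM with SLR10, at 626, 663 and 706 CPM with SLR14 and at 773, 691 and 683 CPM with poly(I:C). It was at 221, 99.8 and 43.1 CPM with pppNS, at 38.3 and 43.3 CPM with vehicle and at 32.9, 29.9 and 19.3 CPM in naive libraries. All 9 libraries of the 3 strong responses lay above every other library, and the pppNS libraries spread from the vehicle level upwards. The difference from vehicle was 3.85 ± 0.44 (log2, SE) with SLR10, a 14.5-fold rise (adjusted p = 1.18e-05), 4.01 ± 0.44 with SLR14 (8.34e-06) and 4.12 ± 0.44 with poly(I:C) (7.66e-06). Of tested genes, 0.878% rose by more than Cd274 with SLR10. With pppNS the estimate was 1.26 ± 0.44 and did not pass (adjusted p = 0.132), but it was 1.85 with an adjusted p of 0.00288 without pppNS replicate 3. It also passed with DESeq2 (1.52, adjusted p = 0.0127), with naive libraries as the control (1.87, 0.00783) and with vehicle and naive libraries together (1.62, 0.01). Exons of Cd274 overlap those of AC119228.1 on the opposite strand over 396 bases in the GENCODE annotation, and whether reads were counted by strand is not stated.

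PD-L2, the other ligand of PD-1, rose less, and its gene Pdcd1lg2 lies next to Cd274 on the same strand (chr19:29410919-29471161). It was at 10.6, 12.0 and 13.9 CPM with SLR10, at 12.2, 8.50 and 12.6 CPM with SLR14 and at 7.93, 4.39 and 6.15 CPM with poly(I:C). The pppNS libraries held 4.70, 2.95 and 4.94 CPM, the vehicle libraries 4.47 and 3.89 CPM and the naive libraries 3.57, 3.34 and 3.79 CPM. Every SLR10 and SLR14 library was above every other library, while poly(I:C) replicate 2 lay within the vehicle range. Pdcd1lg2 was higher than with vehicle by 1.43 ± 0.25 with SLR10 (log2, adjusted p = 0.000467) and by 1.29 ± 0.25 with SLR14 (0.00105). With poly(I:C) its difference was 0.47 ± 0.25 (adjusted p = 0.168), and it was 0.85 (adjusted p = 0.0388) without SLR14 replicate 2 and poly(I:C) replicates 2 and 3, which leaves 1 poly(I:C) library assumed to vary like the other groups, and 0.68 (adjusted p = 0.0256) with naive libraries as the control.

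Within a library, the ratio of Cd274 to Pdcd1lg2 CPM was highest with poly(I:C). It was 43.3 to 53.5 with SLR10, 51.5 to 78.0 with SLR14 and 97.4 to 158 with poly(I:C). With pppNS it ran from 8.73 to 47.1, and it was 8.56 and 11.1 with vehicle and 5.10 to 9.19 in naive libraries. The poly(I:C) range did not overlap the SLR ranges, although this ratio itself was not tested. In contrast, the ratio of Cd86 to Cd80, the pair of CD28 ligands, was 10.6 to 17.3 over all 17 libraries.

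**Figure D2:**
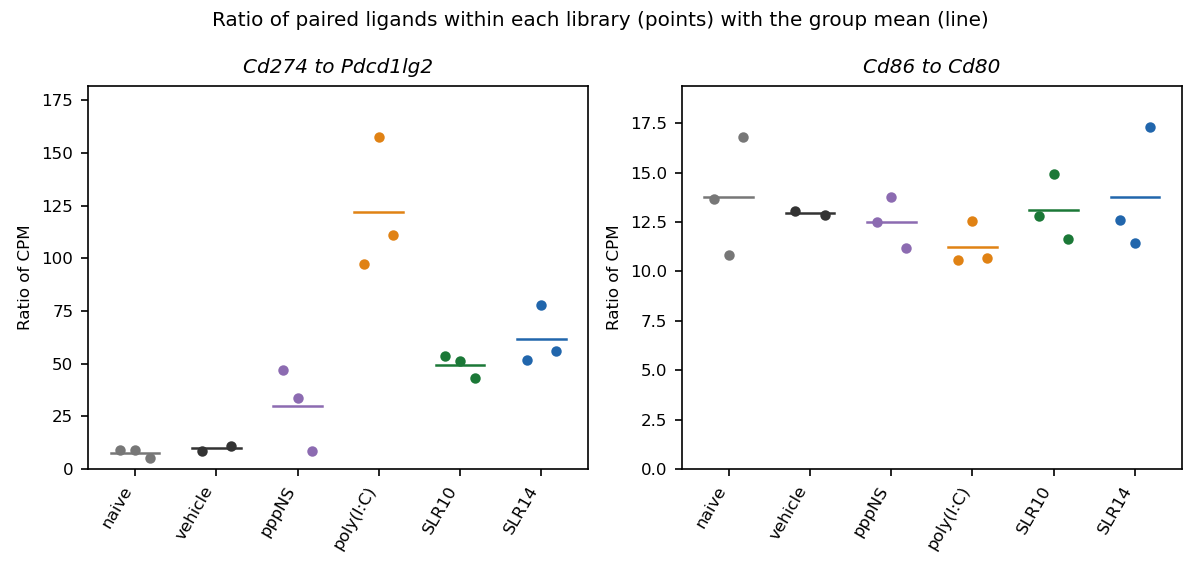
Ratio of CPM of Cd274 to Pdcd1lg2 and of Cd86 to Cd80 in each library (points) with the group mean (line), on linear axes from 0. The first ratio is highest in the 3 poly(I:C) libraries (97.4 to 158), and the second lies between 10.6 and 17.3 in all 17 libraries.

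The CD28 ligands rose together with the 3 strong RNAs. Cd86 (chr16:36603869-36666081, minus strand) was at 243, 235 and 239 CPM with SLR10, at 253, 183 and 270 CPM with SLR14 and at 325, 191 and 228 CPM with poly(I:C). Its level was 94.7, 60.5 and 74.2 CPM with pppNS, 52.3 and 56.5 CPM with vehicle and 53.3, 45.4 and 57.0 CPM in naive libraries. The pppNS libraries lay between the vehicle libraries and the other RNAs without overlapping either. Cd86 was 4.36-fold higher with SLR10 than with vehicle (log2 2.13 ± 0.23, adjusted p = 7.76e-06), and its log2 difference was 2.08 ± 0.23 with SLR14 (9.04e-06) and 2.14 ± 0.23 with poly(I:C) (8.16e-06). With pppNS it was 0.46 ± 0.23 (adjusted p = 0.241).

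Cd80 (chr16:38455561-38496335, plus strand), the less abundant ligand, was at 19.0, 15.7 and 20.5 CPM with SLR10, at 20.0, 16.1 and 15.6 CPM with SLR14 and at 30.8, 15.2 and 21.4 CPM with poly(I:C). It stood at 7.58, 4.39 and 6.65 CPM with pppNS, at 4.0 and 4.39 CPM with vehicle and at 3.91, 4.20 and 3.39 CPM in naive libraries. poly(I:C) replicate 1 was the highest library for Cd80, Cd86 and Cd40 alike. The log2 difference of Cd80 from vehicle was 2.00 ± 0.27 with SLR10 (adjusted p = 3.93e-05), 1.91 ± 0.27 with SLR14 (6.14e-05) and 2.23 ± 0.27 with poly(I:C) (1.73e-05), and 0.48 ± 0.27 with pppNS (0.272).

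Cd40 (chr2:165055627-165072948, plus strand), the receptor through which helper T cells license antigen-presenting cells, had larger log2 differences from vehicle than Cd80 and Cd86, without a test between genes. Its level was 208, 208 and 216 CPM with SLR10, 200, 148 and 215 CPM with SLR14 and 298, 175 and 217 CPM with poly(I:C). pppNS gave 73.4, 36.8 and 78.4 CPM, vehicle 26.8 and 27.7 CPM, and naive libraries held 32.7, 31.5 and 31.0 CPM. All pppNS libraries were above the controls and below the other RNAs. Cd40 rose 7.61-fold with SLR10 (log2 2.93 ± 0.28, adjusted p = 2.45e-06), by 2.74 ± 0.28 on the log2 scale with SLR14 (4.35e-06) and by 3.02 ± 0.28 with poly(I:C) (2.15e-06). It also rose with pppNS by 1.12 ± 0.28 (adjusted p = 0.0378), a call that was lost in 9 of 17 alternatives, among them edgeR (0.0689), the fits without pppNS replicate 1 (0.0754) or 3 (0.0955) and the fits without vehicle replicate 1 (0.238) or 2 (0.247).

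**Figure D3:**
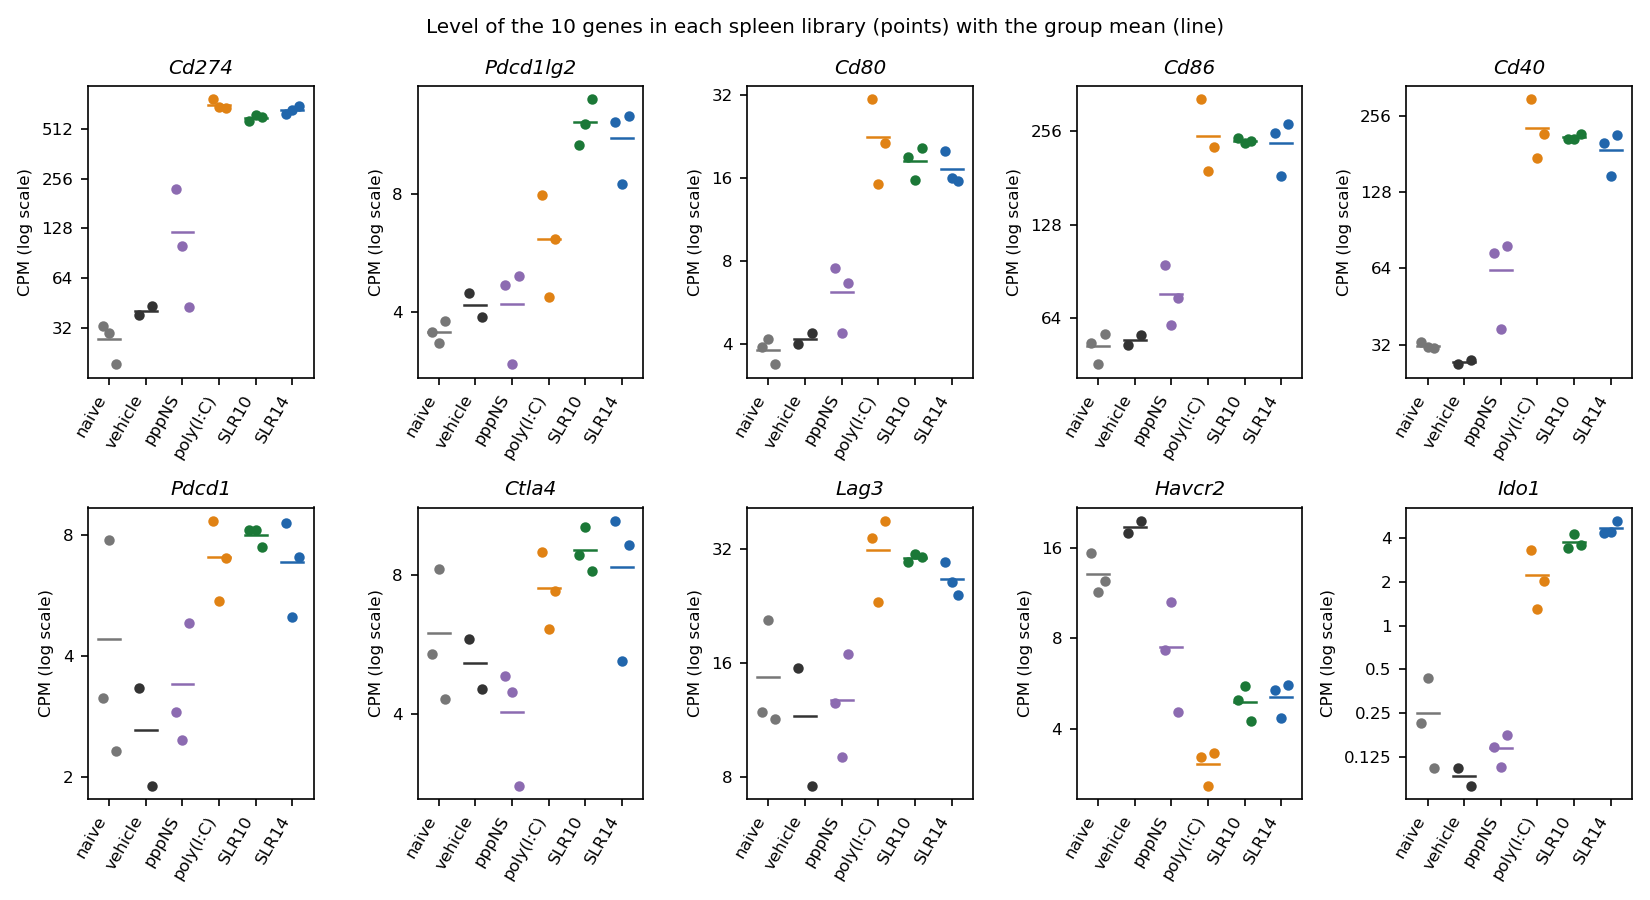
Level of each of the 10 genes in every library (points, CPM on a log scale) with the group mean (line), in naive, vehicle, pppNS, poly(I:C), SLR10 and SLR14 groups. For 8 genes the SLR10 libraries lie above the vehicle libraries with an adjusted p under 0.05, Havcr2 lies below them, and Ctla4 did not pass.

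Among the receptors of T cells, PD-1 and LAG-3 rose with the 3 strong RNAs and CTLA-4 did not pass the test against vehicle. Pdcd1 (chr1:94038305-94052553, minus strand) was at 8.25, 8.24 and 7.49 CPM with SLR10, at 8.57, 5.01 and 7.07 CPM with SLR14 and at 8.69, 5.49 and 7.03 CPM with poly(I:C). It was at 2.91, 2.48 and 4.84 CPM with pppNS, at 3.34 and 1.91 CPM with vehicle and at 3.14, 7.79 and 2.33 CPM in naive libraries. Naive replicate 2 thus lay among the treated libraries, while both vehicle libraries lay below all 9 of them. Pdcd1 was higher than with vehicle by 1.48 ± 0.40 (log2, adjusted p = 0.00834) with SLR10, by 1.25 ± 0.40 (0.0219) with SLR14 and by 1.29 ± 0.40 (0.0198) with poly(I:C). These calls rested on vehicle replicate 2, without which the adjusted p was 0.115, 0.217 and 0.201. The SLR14 call was also lost without SLR14 replicate 1 (0.0753) or 3 (0.0527), and the poly(I:C) call without poly(I:C) replicate 1 (0.0549). With naive libraries as the control, the adjusted p of Pdcd1 was 0.0395 for SLR10, 0.115 for SLR14 and 0.0963 for poly(I:C).

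Lag3 (chr6:124904361-124911705, minus strand), whose product binds MHC class II and dampens T cells, was at 29.4, 30.9 and 30.5 CPM with SLR10, at 29.5, 26.1 and 24.2 CPM with SLR14 and at 34.2, 23.1 and 37.9 CPM with poly(I:C). Its level was 12.5, 9.02 and 16.8 CPM with pppNS, 15.5 and 7.57 CPM with vehicle and 11.8, 20.7 and 11.4 CPM in naive libraries. All 9 libraries with SLR10, SLR14 or poly(I:C) lay above all 8 others, naive replicate 2 being again the highest of the controls. The log2 difference of Lag3 from vehicle was 1.44 ± 0.33 with SLR10 (adjusted p = 0.00294), 1.25 ± 0.33 with SLR14 (0.00752) and 1.47 ± 0.33 with poly(I:C) (0.00278). Without vehicle replicate 2 the adjusted p was 0.0786, 0.161 and 0.0733, and with naive libraries as the control it was 0.00731, 0.0222 and 0.00643.

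Ctla4 (chr1:60887000-60915832, plus strand), the inhibitory counterpart of CD28, was at 8.80, 10.1 and 8.14 CPM with SLR10, at 10.4, 5.20 and 9.27 CPM with SLR14 and at 8.95, 6.11 and 7.38 CPM with poly(I:C). It was at 4.85, 4.48 and 2.81 CPM with pppNS, at 5.82 and 4.53 CPM with vehicle and at 5.41, 8.24 and 4.32 CPM in naive libraries. SLR14 replicate 2 lay between the vehicle libraries, and naive replicate 2 lay among the treated ones. Its log2 difference from vehicle was 0.75 ± 0.31 with SLR10 (95% interval 0.08 to 1.42, adjusted p = 0.0716), 0.59 ± 0.31 with SLR14 (-0.08 to 1.26, 0.16) and 0.49 ± 0.31 with poly(I:C) (-0.18 to 1.16, 0.25). The SLR10 difference of Ctla4 passed under quantile scaling (adjusted p = 0.0275), in a fit of only those groups (0.00155) and with vehicle and naive libraries together as the control (0.0357), and the SLR14 difference passed without SLR14 replicate 2 (0.88, adjusted p = 0.0328).

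Part of the T cell markers fell where Pdcd1 and Lag3 rose, and part of the regulatory T cell markers rose. Of 10 T cell markers, 5 fell and none rose with SLR10, with SLR14 and with poly(I:C), where 19.2%, 19.4% and 17.3% of all tested genes fell. The summed level of these markers was 348 to 356 CPM with SLR10, 234 to 395 CPM with SLR14, 303 to 388 CPM with poly(I:C), 413 to 582 CPM with pppNS, 488 and 540 CPM with vehicle and 483 to 638 CPM in naive libraries. Cd5 had a log2 difference of -2.51 ± 0.19 and Thy1 one of -2.81 ± 0.22 with SLR10. Of 4 regulatory T cell markers, 3 rose with SLR10 and 2 each with SLR14 and poly(I:C), where 20.2%, 19.3% and 18.6% of all tested genes rose. The sum of these markers was 118 to 135 CPM with SLR10, 66.1 to 124 CPM with SLR14, 96.0 to 187 CPM with poly(I:C), 22.1 to 35.9 CPM with pppNS, 27.6 and 31.9 CPM with vehicle and 18.2 to 31.3 CPM in naive libraries. With SLR10 most of that sum was Il2ra, the IL-2 receptor alpha chain that activated T cells also carry, at 75.2, 86.1 and 82.6 CPM against 8.74 and 8.38 CPM with vehicle, while Foxp3, the defining factor of regulatory T cells, was at 10.5, 14.1 and 10.9 CPM against 7.40 and 5.82 CPM. The part of these markers in the receptor results was not tested. In bulk tissue, fewer cells of a type and less RNA per cell cannot be told apart.

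**Figure D4:**
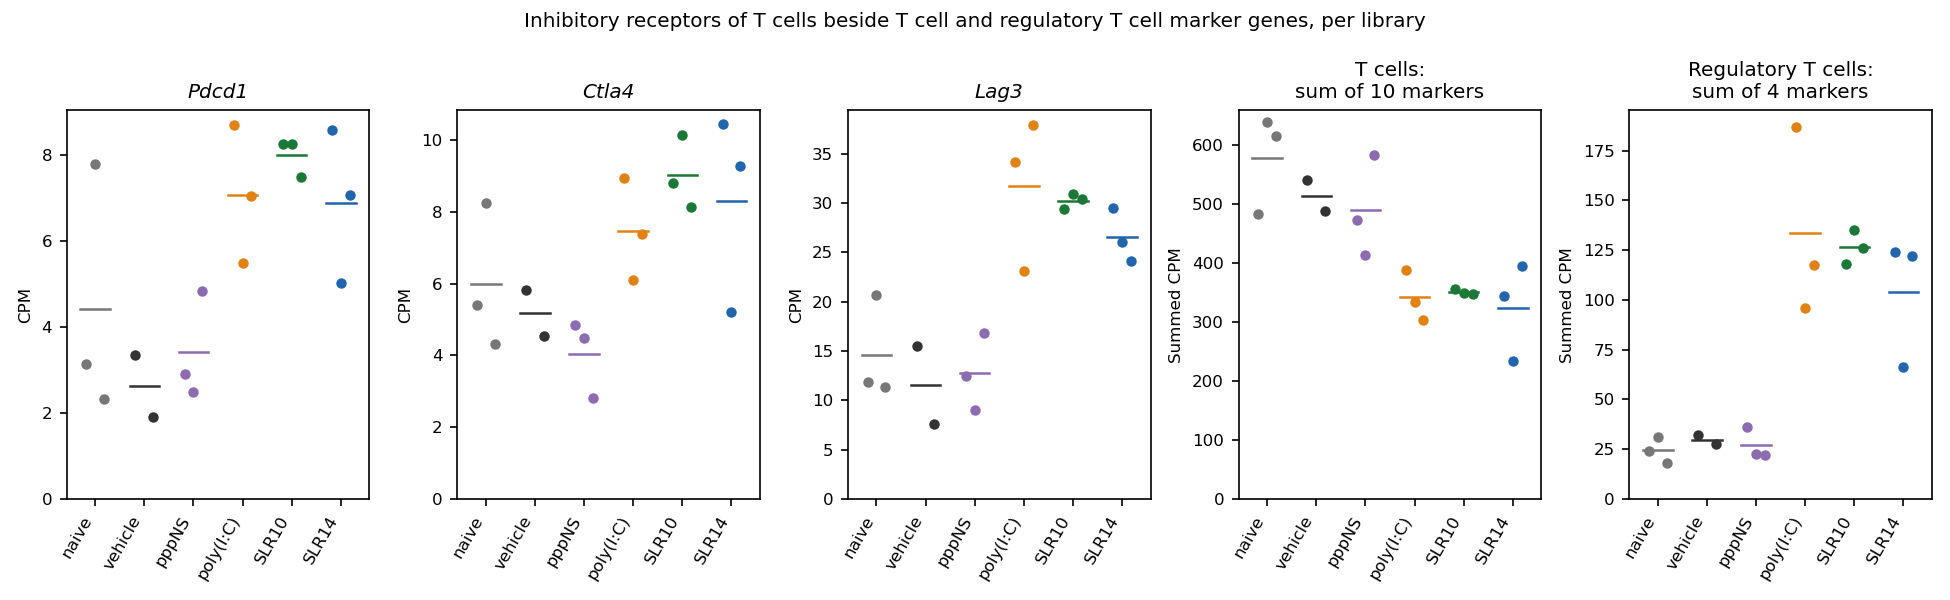
CPM of Pdcd1, Ctla4 and Lag3 and summed CPM of 10 T cell and 4 regulatory T cell markers in each library (points) with the group mean (line), on linear axes from 0. The SLR10 libraries are high for Pdcd1 and Lag3 and for the regulatory T cell sum (118 to 135 CPM), and low for the T cell sum (348 to 356 CPM against 488 and 540 CPM with vehicle).

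TIM-3 was the member that fell. Havcr2 (chr11:46454935-46481255, plus strand) was at 4.99, 5.56 and 4.25 CPM with SLR10, at 5.39, 4.35 and 5.60 CPM with SLR14 and at 3.25, 2.60 and 3.34 CPM with poly(I:C). It was at 7.35, 10.6 and 4.55 CPM with pppNS, at 17.8 and 19.6 CPM with vehicle and at 15.4, 11.4 and 12.4 CPM in naive libraries. Every library that had received an RNA was below every control library, and pppNS replicate 3 lay within the SLR range. Between pppNS and vehicle, 42.8% of all tested genes did not overlap. Havcr2 was 3.55-fold lower with SLR10 than with vehicle (log2 -1.83 ± 0.26, adjusted p = 8.05e-05), with log2 differences of -1.78 ± 0.26 for SLR14 (0.000103) and -2.44 ± 0.26 for poly(I:C) (7.66e-06). With pppNS it fell by 1.34 ± 0.26 on the log2 scale (adjusted p = 0.00954), by 1.04 without pppNS replicate 3 (adjusted p = 0.0116), and the call was lost without vehicle replicate 1 (0.077) or 2 (0.133).

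Dendritic cell markers fell in those same libraries. Of 8 markers of conventional dendritic cells, which carry TIM-3, none rose. Of these markers 7 fell with poly(I:C) (against 17.3% of all tested genes), 6 with SLR10 (19.2%), 5 with SLR14 (19.4%) and 2 with pppNS (1.35%). Their sum was 71.5 to 76.0 CPM with SLR10, 65.2 to 72.2 CPM with SLR14, 64.1 to 83.4 CPM with poly(I:C), 121 to 134 CPM with pppNS, 173 and 176 CPM with vehicle and 142 to 172 CPM in naive libraries. Xcr1, the chemokine receptor of cross-presenting dendritic cells, had a log2 difference of -2.66 ± 0.19 with SLR10 and of -0.85 ± 0.19 with pppNS (adjusted p = 0.019). Of 9 markers of monocytes and macrophages, 4 fell and 1 rose with SLR10, and their sum was 658 to 692 CPM against 728 and 869 CPM with vehicle. The 6 neutrophil markers summed to 413 to 500.2 CPM with SLR10, 376 to 866 CPM with SLR14, 740.0 to 1310 CPM with poly(I:C), 230.3 to 921 CPM with pppNS and 101 and 106 CPM with vehicle, and 4 of the 6 rose with SLR10. Their highest sum was in poly(I:C) replicate 1, the library with the most Cd80, Cd86 and Cd40, and the 921 CPM were in pppNS replicate 3, where Cd274 was at 43.1 CPM. With SLR10, 20.2% of all tested genes rose and 19.2% fell. B cell markers, of which 2 of 8 fell with SLR10, near that share, summed to 1904 to 2069 CPM against 2528 and 2551 CPM. The part of any of these in the results on the 10 genes was not tested.

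Ido1, whose product degrades tryptophan, had the lowest level of the 10 genes in control libraries. Its gene (chr8:24584136-24597009, minus strand) was at 3.41, 4.28 and 3.60 CPM with SLR10, at 4.36, 4.38 and 5.26 CPM with SLR14 and at 3.30, 1.30 and 2.04 CPM with poly(I:C). It was at 0.147, 0.106 and 0.178 CPM with pppNS (5 reads in each), at 0.105 and 0.0794 CPM with vehicle (4 reads in each) and at 0.214, 0.437 and 0.106 CPM in naive libraries. The 9 libraries of the 3 strong RNAs lay above the 8 others, and pppNS lay within the naive range. Because 0.5 CPM was added before logs were taken, the fitted differences from vehicle, 2.84 ± 0.26 with SLR10 (log2, adjusted p = 1.49e-06), 3.12 ± 0.26 with SLR14 (6.72e-07) and 2.13 ± 0.26 with poly(I:C) (2.1e-05), understate the change. Pooled over libraries, the CPM ratio of Ido1 to vehicle was 42.0 with SLR10 (340 reads, 95% interval 21.1 to 98.1), 51.1 with SLR14 (374 reads, 25.7 to 119) and 25.1 with poly(I:C) (210 reads, 12.5 to 59.0), with intervals for counting error only, in which reads copied by PCR are not independent. With pppNS that ratio was 1.52 (0.603 to 4.13).

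Levels of different genes were compared per kilobase of exon, with GENCODE lengths. In naive and vehicle libraries Cd86 was the highest of the 10, at 14.2 ± 1.6 (SD, n = 3) and 14.9 ± 0.81 CPM per kb (SD, n = 2). Cd274 followed at 11.3 ± 0.98 CPM per kb with vehicle and Cd40 at 8.00 ± 0.20, while Ido1 was lowest at 0.0506 ± 0.010. In naive libraries the order of these 2 was the other way, with Cd40 at 9.31 ± 0.26 and Cd274 at 7.55 ± 2.0 CPM per kb. With SLR10 Cd274 was highest at 165 ± 6.9 CPM per kb (SD, n = 3), followed by Cd86 at 65.3 ± 1.2 and Cd40 at 61.9 ± 1.5. Those 2 did not overlap with SLR10, but overlapped with SLR14 (64.3 ± 13 and 55.1 ± 10 CPM per kb) and with poly(I:C) (67.8 ± 19 and 67.5 ± 18). Lag3 was at 14.3 ± 0.35 CPM per kb with SLR10, above Pdcd1 at 4.14 ± 0.23 and Ctla4 at 3.87 ± 0.44, which did not differ beyond their spread. Havcr2 was at 6.88 ± 0.47 CPM per kb with vehicle, above Lag3 at 5.47 ± 2.7 by less than the spread, and at 1.81 ± 0.24 with SLR10, where it did not differ from Ido1 at 2.06 ± 0.25 beyond the spread. In naive libraries Havcr2 was at 4.80 ± 0.76 CPM per kb, below Lag3 at 6.95 ± 2.5.

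The 2 stem-loop RNAs were compared directly at the labelled dose. No gene of the 10 differed between SLR14 and SLR10 by limma (0 at an unadjusted p under 0.05, 0 by edgeR and 0 by DESeq2), where 0% of all tested genes passed. The median log2 difference was -0.12. Intervals bounded the difference to within -0.49 and 0.41 for Cd86 and -0.22 and 0.77 for Ido1, but for Cd274 they ran from -0.70 to 1.01 and for Pdcd1 from -0.99 to 0.53. Cd274 and Ido1 were higher in every SLR14 library than in any SLR10 library, by 0.16 ± 0.40 and 0.28 ± 0.23 on the log2 scale, without passing the test, and 9.04% of all tested genes did not overlap between these groups.

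Against poly(I:C), whose dose the labels do not give separately, 1 of the 10 genes differed with SLR10, where 1.92% of all tested genes passed (1.03% higher, 0.892% lower). All 3 SLR10 libraries lay above all 3 poly(I:C) libraries for Pdcd1lg2, and 35.2% of all tested genes did not overlap between these groups. Pdcd1lg2 was 1.94-fold higher with SLR10 (log2 0.96 ± 0.23, adjusted p = 0.0484). That call was lost in 12 of 17 alternatives (adjusted p of 0.0068 to 0.566 over all 17), among them the fits without any 1 SLR10 library (0.103 to 0.225), without poly(I:C) replicate 2 (0.207) or 3 (0.119), and without SLR14 replicate 2 and poly(I:C) replicates 2 and 3 (log2 0.58, 0.566). Between SLR14 and poly(I:C) none of the 10 passed in limma (3 at an unadjusted p under 0.05, 0 by edgeR and 0 by DESeq2), where 1.3% of tested genes did. Those 3 were Ido1, which was higher with SLR14 by 0.99 ± 0.23 (log2, adjusted p = 0.0554, 0.0137 without poly(I:C) replicate 1), Pdcd1lg2 (0.82 ± 0.23, 0.119) and Havcr2 (0.66 ± 0.24, 0.265). For Cd80, Cd86 and Cd40 the differences between SLR10 and poly(I:C) were -0.23, -0.02 and -0.09, and the interval for Cd86 was -0.47 to 0.43.

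pppNS stood apart from the other RNAs. Of the 10 genes, 9 were higher with SLR10 than with pppNS and none was lower, where 40.3% of all tested genes passed (20.4% higher, 19.9% lower). SLR14 was higher for 8 and lower for none, where 32.8% passed (17.5% higher, 15.3% lower), and poly(I:C) was higher for 7 and lower for Havcr2, where 26.8% passed (15.4% higher, 11.4% lower). These comparisons share the 3 pppNS libraries. Libraries did not overlap for 9 of the 10 genes in each, nor for 55.3% (SLR10), 37.6% (SLR14) and 33.1% (poly(I:C)) of all tested genes. Cd274 was 6.03-fold higher with SLR10 than with pppNS (log2 2.59 ± 0.40, adjusted p = 0.00024), Ido1 differed by 2.72 ± 0.23 (3.39e-06) and Cd40 by 1.81 ± 0.25 (0.000117). Ctla4, which did not pass against vehicle, was higher than with pppNS by 1.09 ± 0.28 with SLR10 (0.00761), by 0.93 ± 0.28 with SLR14 (0.0203) and by 0.83 ± 0.28 with poly(I:C) (0.0414). Without pppNS replicate 3, in which Ctla4 was lowest, these adjusted p were 0.0264, 0.0675 and 0.129. The SLR14 call of Ctla4 was also lost without SLR14 replicate 1 (0.0966) or 3 (0.0752), and the poly(I:C) call without poly(I:C) replicate 1 (0.142) or 3 (0.09) or pppNS replicate 2 (0.0539). The SLR10 call of Pdcd1 was lost without SLR10 replicate 1 or 2 or pppNS replicate 2 (adjusted p up to 0.0647). For Lag3 the SLR14 call was lost without SLR14 replicate 1, without pppNS replicate 2 and with only the groups compared (up to 0.0548). With only the groups compared, the poly(I:C) calls of Lag3 (0.0624) and Havcr2 (0.106) were lost too. Without pppNS replicate 3 Havcr2 passed as lower with SLR10 (log2 -0.79, adjusted p = 0.00514) and with SLR14 (-0.74, 0.0078). Pdcd1 was higher than with pppNS by 0.93 with SLR14 (log2, adjusted p = 0.0576) and by 0.98 with poly(I:C) (0.0556) and did not pass, but without pppNS replicate 3 these differences were 1.18 (0.0253) and 1.23 (0.0245), and without SLR14 replicate 2 that of SLR14 was 1.13 (0.0392). The difference of Pdcd1lg2 between poly(I:C) and pppNS was 0.50 (adjusted p = 0.126), and 0.70 (0.041) without poly(I:C) replicate 2.

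Across the pppNS libraries the order of Cd274 was not the order of Cd40. Replicate 1 held 221 CPM of Cd274 and 73.4 CPM of Cd40, and replicate 3 held 43.1 and 78.4 CPM. Ifng, which encodes interferon gamma, was at 6.03, 2.36 and 4.12 CPM, and Irf1, a factor that interferons induce, at 360.4, 181 and 386 CPM. Vehicle libraries held 1.00 and 0.775 CPM of Ifng and 103 and 108 CPM of Irf1. Ifng had a log2 difference of 6.87 ± 0.56 with SLR10 and Irf1 one of 3.29 ± 0.28 (adjusted p = 6.28e-07 and 8.88e-07).

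Calls in the wider B7 and CD28 family went both ways, in numbers near the shares of all tested genes. Of 7 further members tested, 2 rose and 2 fell with SLR10, 1 rose and 2 fell with SLR14 and with poly(I:C), and none passed with pppNS. Of all tested genes 20.2% rose and 19.2% fell with SLR10, 19.3% and 19.4% with SLR14, and 18.6% and 17.3% with poly(I:C). With pppNS 2.96% rose and 1.35% fell, and these shares also apply to the lists below. Cd276 (B7-H3, a B7-family molecule) rose from 3.00 and 2.86 CPM with vehicle to 10.2, 10.05 and 9.07 CPM with SLR10 (log2 1.58 ± 0.20, adjusted p = 2.95e-05). 4632428N05Rik, the gene of the inhibitory receptor VISTA, fell from 79.2 and 80.4 CPM to 15.4, 14.9 and 15.1 CPM (-2.36 ± 0.22, 1.87e-06). Cd28, the activating receptor itself, fell by 1.14 ± 0.34 on the log2 scale (0.0156), and Icosl, the ligand of ICOS, rose by 0.82 ± 0.25 (0.0195).

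Of 10 costimulatory genes of the TNF and TNF receptor families, 6 rose and 1 fell with SLR10, 5 rose and 1 fell with SLR14, 4 rose and 1 fell with poly(I:C), and none passed with pppNS. Tnfsf4 (OX40 ligand) was at 8.10, 5.48 and 7.67 CPM with SLR10, at 10.2, 12.6 and 7.93 CPM with SLR14 and at 2.96, 1.46 and 2.57 CPM with poly(I:C), against 0.369 and 0.199 CPM with vehicle. Its SLR libraries were all above its poly(I:C) libraries, and 35.2% (SLR10) and 17.6% (SLR14) of all tested genes did not overlap with poly(I:C). Tnfrsf9 (4-1BB) was at 27.6, 31.9 and 29.4 CPM with SLR10 and at 5.61 and 4.19 CPM with vehicle (log2 2.49 ± 0.30, adjusted p = 1.95e-05). The ligand Tnfsf8 (CD30 ligand) differed by 1.97 ± 0.45 (0.00303) and Tnfsf9 (4-1BB ligand) by 1.57 ± 0.30 (0.000933). Cd40lg, the ligand of CD40, was at 1.50, 1.46 and 2.30 CPM with SLR10 against 3.58 and 3.02 CPM with vehicle and did not pass (log2 -0.77 ± 0.56, adjusted p = 0.31).

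Downstream of CD40, 7 of 9 listed genes of the signal chain rose with SLR10 and with SLR14, 5 rose and 1 fell with poly(I:C), and none passed with pppNS. The log2 differences with SLR10 were 1.69 ± 0.23 for the adaptor Traf1, 1.66 ± 0.22 for Birc3, 1.35 ± 0.21 for Nfkb2 and 1.22 ± 0.17 for Relb, the NF-κB subunits of the non-canonical arm. Of 5 genes on the axis of TIGIT, an inhibitory receptor, and its nectin-family ligands, the ligand genes Pvr and Pvrl2 rose with SLR10, SLR14 and poly(I:C), and Pvrl2 rose with pppNS too (1.06 ± 0.26, adjusted p = 0.0329).

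All 9 tested genes among ligands of TIM-3 and LAG-3 and related inhibitory pairs passed with SLR10, 4 rising and 5 falling. With SLR14 4 rose and 5 fell, with poly(I:C) 3 rose and 5 fell, and with pppNS 2 rose and none fell. Lgals9, which encodes galectin-9, a TIM-3 ligand, was at 590.2, 642 and 639 CPM with SLR10 and at 70.4 and 77.8 CPM with vehicle, a log2 rise of 3.07 ± 0.32 (adjusted p = 5.62e-06), and it rose by 2.06 ± 0.32 with pppNS (0.00219). Cd200, an inhibitory ligand, rose by 1.97 ± 0.26 (4.09e-05). In the other direction Cd244 and Cd160, receptors of NK and T cells, had log2 differences of -2.41 ± 0.20 and -2.09 ± 0.19 with SLR10 (7.5e-07 and 1.85e-06). Ceacam1, on the same list as Lgals9, had the largest fall of that list with SLR10 (log2 -2.61 ± 0.62, adjusted p = 0.00374). The listed ligands and inhibitory pairs thus did not move in 1 direction. Of 4 further tryptophan and kynurenine enzymes, Kmo rose by 0.87 ± 0.31 (0.0357) and Haao fell by 1.02 ± 0.19 (0.000702) with SLR10, Haao fell and none rose with SLR14, 2 rose (Kmo by 1.11, Kynu by 1.16) and Haao fell with poly(I:C), and none passed with pppNS.

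**Figure D5:**
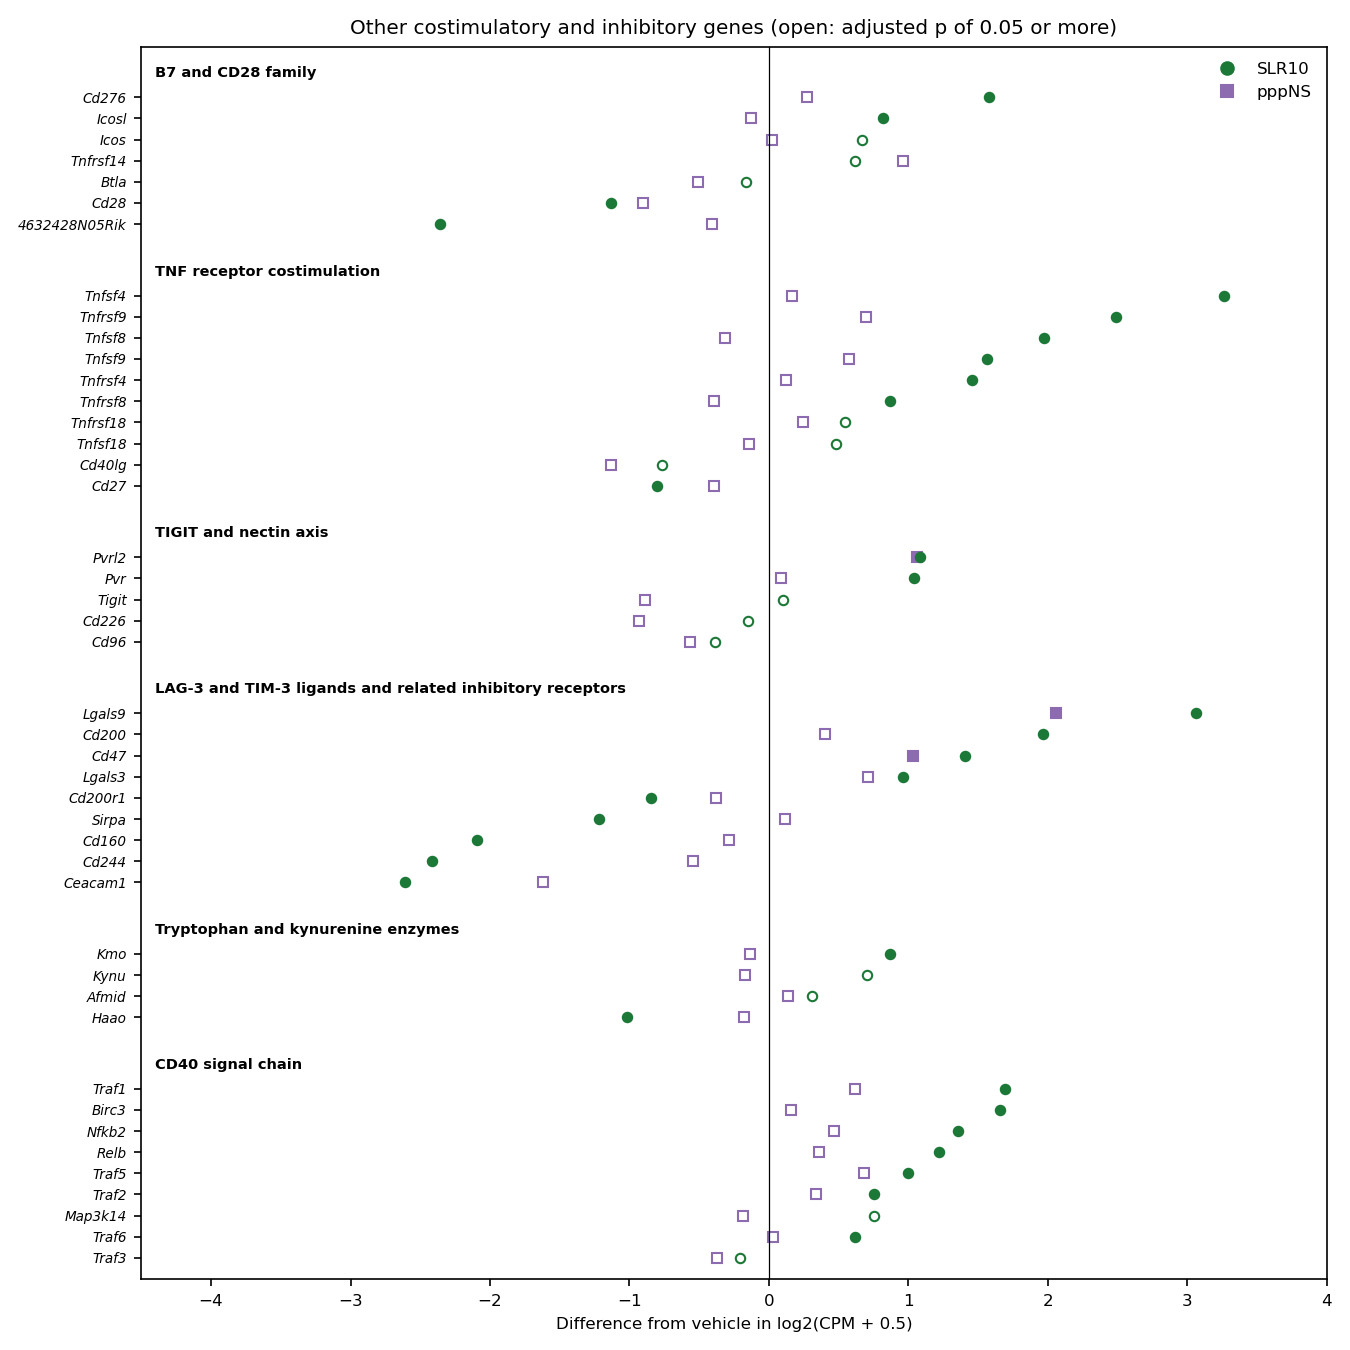
Difference from vehicle in log2(CPM + 0.5) for the other tested genes of 6 lists, with SLR10 as circles and pppNS as squares, open symbols having an adjusted p of 0.05 or more. SLR10 values run from -2.61 for Ceacam1 to 3.27 for Tnfsf4, and among pppNS values Lgals9, Cd47 and Pvrl2 are filled.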

How the data were processed

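Spleen RNA was measured by RNA-seq in 17 mouse libraries, as stranded mRNA libraries made from 500 ng of total RNA, per the labels' protocols. The submitters' processing notes name edgeR, HTSeq, SAMtools 1.4, TopHat, TopHat2 2.0.6 and FastQC and the builds GRCm38 and mm10. The annotation and the strand setting of the counting are not given in the sources used here.

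The deposited table holds signal values, named CPM per the file headers, that are reads per gene scaled by an edgeR library size. Columns sum to 696096 to 1484240, and at least 99.99% of values are whole multiples of 1 read (tolerance 0.01 reads), 0.0175 to 0.0431 CPM each. The sums were 696096 to 748327 in vehicle and naive libraries and 1058768 to 1275805 in SLR10, SLR14 and poly(I:C) libraries. With pppNS they were 836415, 782210 and 1484240. Differences between these groups carry that deposited scaling, and no alternative used plain library sizes. Of 39184 lines, 5 without a gene name (28.1% to 46.1% of a library's reads), 699 named #N/D, 27 with date or number names and 113 repeats of 87 names were left out.

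Values were taken as log2(CPM + 0.5), and the 14010 genes that reached 1 CPM in 2 or more libraries were fitted over all 17 libraries with limma 3.58.1 (R 4.3.3) and its trended prior. Benjamini-Hochberg adjustment ran over all tested genes within each of 11 comparisons, with a threshold of 0.05. Errors beside log2 differences are standard errors, and intervals are 95% intervals. Reads recovered from the steps were also tested with edgeR 4.0.16 and DESeq2 1.42.0. Exon lengths, coordinates (GRCm38) and overlaps come from GENCODE vM21, used for description only, since the annotation behind the counts is not stated.

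The fit was also run on counts simulated for all 17 libraries with equal group means, but for 100 genes changed 2-fold and 100 changed 4-fold. The changed genes had a mean of at least 5 CPM. For SLR10 against vehicle (13687 genes) the fit found 18% of the former and 82% of the latter, and 3.85% of its calls were unchanged genes. For SLR14 against SLR10 (13670 genes) it found 31% and 91%, with 3.17% of calls unchanged. Far fewer genes changed than the 39.4% called between SLR10 and vehicle in the data, so the first shares do not give the sensitivity of that comparison.

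The 10 genes, the gene lists and the tests were chosen with earlier results of these data known. All 10 genes are described. Of each list, up to 4 genes with the smallest adjusted p in a comparison are named with their values, and Cd40lg and Ceacam1 are named besides. For likeness, the 3 genes with the highest Pearson r over 17 libraries are named, among 9716 genes with a mean of at least 5 CPM, without numbered gene models or antigen receptor segments. Counts over a list of interferon and NF-κB factors are not reported here. Replicate numbers come from the titles. Alternatives were the pseudocount (0.1 and 2), the filter, the scaling, only the groups compared, a replicate block, edgeR, DESeq2, each replicate left out, the control group, and a fit without 3 libraries high in erythroid transcripts.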

Additional observations from a re-analysis of the deposited data

How the results depend on the processing

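No called difference of the 10 genes changed sign under an alternative. Of 1849 alternative values 1769 kept their side of the threshold, 54 fell short of it and 26 came past it. Differences that did not pass could change sign, as that of Lag3 between pppNS and vehicle did (log2 0.18 as reported, lowest alternative -0.31). Counts of members past the threshold moved by over 1.5 times in 4 of the 11 comparisons. For pppNS against vehicle, 2 members passed, against 1 with no filter, 1 under median-of-ratios scaling, 1 under quantile scaling, 1 with edgeR 0 with only the groups compared, 3 with DESeq2, with naive or with vehicle and naive libraries as the control, and 0 to 2 with a replicate left out (0 without either vehicle library). For SLR10 against poly(I:C), where 1 passed, 0 did with a pseudocount of 0.1, no filter, median-of-ratios or quantile scaling, only the groups compared, edgeR, or without SLR14 replicate 2 and poly(I:C) replicates 2 and 3, and 0 to 2 with a replicate left out. For SLR14 against poly(I:C), where 0 passed, 1 did with a pseudocount of 2, and 0 to 1 with a replicate left out. For poly(I:C) against pppNS, 8 passed and 5 did with only the groups compared, a fit on fewer samples. The cause of the other changes was not tested.

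With the replicate block, the number of members past the threshold was as without it in each of the 11 comparisons: 9, 9, 8 and 2 for SLR10, SLR14, poly(I:C) and pppNS against vehicle, 0 for vehicle against naive and for SLR14 against SLR10, 1 and 0 for SLR10 and SLR14 against poly(I:C), and 9, 8 and 8 for the other RNAs against pppNS. Deviations from the group means had a median correlation of 0.03 between libraries of equal number in 2 groups (over 0.1 in 15 of 40 pairs). Between libraries of different number it was -0.03 (over 0.1 in 27 of 80 pairs). Single pairs of equal number ran from -0.52 to 0.80, and what equal numbers share beyond the number was not tested.

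Leaving out 1 replicate gave 7 to 9 members for SLR10, 7 to 10 for SLR14 and 6 to 8 for poly(I:C) against vehicle. Over all genes, the count past the threshold ran from 0 to 1547 for pppNS against vehicle (603 as reported), from 21 to 1621 for SLR10 against poly(I:C) (269), from 0 to 389 for SLR14 against poly(I:C) (182), from 0 to 99 for vehicle against naive (7), from 3767 to 9903 for SLR10 (5518) and from 3262 to 6533 for poly(I:C) (5030) against vehicle, from 1351 to 5508 for SLR14 (4600) and from 728 to 4353 for poly(I:C) (3761) against pppNS, and was 1 with DESeq2 for SLR14 against SLR10 (0). Quantile scaling moved the median log2 difference of all genes from 0.07 to -0.09 for poly(I:C), from 0.04 to -0.07 for SLR14 and from 0.01 to -0.10 for pppNS against vehicle. With the filter at 5 CPM, Ido1 gave no value. The vehicle group has 2 libraries, and Ido1 in vehicle rests on 8 reads.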

Other observations

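For each of the 10 genes, the genes with the most similar pattern over the 17 libraries were listed by Pearson r of log2(CPM + 0.5), as a description of libraries that share groups. The pattern of Cd274 was closest to Setdb2, Tnfsf10 and Samd9l (r of 0.996 for each). Cd86 was closest to Il10ra (0.994), Ifng (0.993) and Gzmb (0.992), and Cd40 to Dnaja2 (0.994), Gca (0.991) and Irf1 (0.991). For Cd80 they were Plek (0.989), D16Ertd472e (0.988) and Phf6 (0.985).

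Ido1 had 3 interferon alpha genes, Ifna4, Ifna5 and Ifna9, as its closest (0.983 for each), whose near-identical sequences can share reads. Ctla4 was closest to Foxp3 (0.934), Il2rb (0.927) and Scamp2 (0.927). Pdcd1 and Lag3 were among each other's closest (0.940), beside Clptm1l (0.942) and Zc3h10 (0.916) for Pdcd1 and Fscn1 (0.941) and Tbx21 (0.933) for Lag3. Pdcd1lg2 was closest to Prmt3 (0.968), Mettl1 (0.963) and Shmt1 (0.961), and Havcr2 to Bmf (0.976), Inpp5f (0.965) and Rhoq (0.963).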
